A study of Homo sapiens with 17 samples.

Results

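The 10 genes described here encode proteins that decide how long cytokine mRNAs last: ZFP36, ZFP36L1, ZFP36L2, ZC3H12A, ZC3H12C, ELAVL1, HNRNPD, KHSRP, ARID5A and RC3H1. They were picked out of the table by symbol, and each symbol matched 1 of the 58870 entries of the count table. All 10 members passed the filter on low counts, as did 15365 entries in all. RNA came from the established line MDA-MB-231, human triple-negative breast cancer cells whose type the labels give as mesenchymal and basal B. Cells were grown in RPMI with serum and received 45 nM of the death receptor ligand TRAIL, a cytokine related to TNF, a dose the labels call suboptimal. RNA was taken at 0, 1, 3, 6, 12 and 24 h, with 2 libraries analysed here for 1 h and 3 for every other time. All 17 libraries, those at 0 h included, carry the same treatment label, and none of the later ones is an untreated control, so time with TRAIL and time in culture cannot be told apart. Nothing in the labels says that replicates came from separate cultures, so p-values measure only the spread between these libraries, which may be technical.

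Cytokine mRNAs are short-lived because their 3′ untranslated regions (UTRs) carry A- and U-rich elements and stem-loops that recruit decay factors. ZFP36 (tristetraprolin) and its paralogs ZFP36L1 and ZFP36L2 bind UAUUUA-type elements through paired CCCH zinc fingers and bring the CCR4-NOT deadenylase. ZC3H12A (Regnase-1) and its paralog ZC3H12C are ribonucleases of one family, and ZC3H12A cuts stem-loops in inflammatory mRNAs, which RC3H1 (Roquin-1) also recognises. HNRNPD (AUF1) and KHSRP (KSRP) are A/U-rich element binders that mostly promote decay, whereas ELAVL1 (HuR) and ARID5A stabilise bound mRNAs, ARID5A being known for IL6.

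Several members carry the element that their own family binds. The nonamer TTATTTATT, written as DNA, is shown because it is a full binding element of the ZFP36 proteins, and it occurred in the 3′ UTR of all 3 ZFP36 genes, ZC3H12C and ELAVL1. Each window below is 25 bases, 5′ to 3′ on the gene's strand, from the GENCODE 29 transcript with the longest annotated 3′ UTR (GRCh38), with the nonamer in capitals, and CXCL8, a known cytokine target, is set beside them:
ZFP36 (3′ UTR, chr19:39409198-39409222, plus strand): tgacgactTTATTTATTctaatatg
ZFP36L1 (3′ UTR, chr14:68788079-68788103, minus strand): ctgttggaTTATTTATTttagaaat
ZFP36L2 (3′ UTR, chr2:43223450-43223474, minus strand): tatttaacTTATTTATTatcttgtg
ZC3H12C (3′ UTR, chr11:110170159-110170183, plus strand): tacacccaTTATTTATTagagatat
ELAVL1 (3′ UTR, chr19:7961830-7961854, minus strand): ttatgtatTTATTTATTgaagtgtg
CXCL8 (3′ UTR, chr4:73742666-73742690, plus strand): gtaaagtaTTATTTATTtgaatcta
Of 19395 protein-coding genes with an annotated 3′ UTR, 8.1% carried the nonamer on the transcript strand. Each of these 5 members carried it 1 time, and the other 5 carried it 0 times. Copies of the shorter ATTTA, which the nonamer contains, numbered 5 in ZFP36, 8 in ZFP36L1, 5 in ZFP36L2, 27 in ZC3H12C, 13 in ELAVL1, 21 in RC3H1 and 2 in HNRNPD. Per kilobase of 3′ UTR these were 7.01, 2.83, 2.61, 4.42, 2.65, 2.8 and 1.19, in the same order. ZC3H12A, KHSRP and ARID5A held 0 copies. Of the same 19395 genes, 67.1% carried ATTTA, so that holding it was common. A match describes the sequence and does not show binding.

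The libraries held 13731520 to 19234924 counts each. Levels are in CPM (counts scaled to a common library total, by TMM), and errors are SDs between libraries. The mesenchymal marker VIM stood at 2495 to 3724 CPM, ESR1 and PGR had at most 2 and 1 counts, and the leukocyte markers PTPRC and CD3E at most 5 and 0. EPCAM, an epithelial marker, was at 13.1 to 19.3 CPM. PECAM1, an endothelial marker, was detected at 0.789 to 3.98 CPM, with at most 68 counts, and LYZ had at most 6 counts. Mitochondrial genes took 3.66% to 9.71% of the counts, and this share moved with time: 7.99% to 8.97% at 3 h, 3.97% to 5.45% at 6 h and 3.66% to 4.14% at 24 h, with 5.53% to 8.37% at 0 h. Likewise, libraries differed in how log2 CPM changed with transcript length, with a slope per log2 unit of length of -0.14 in replicate 2 of 3 h and 0.14 in replicate 2 of 24 h. The slopes were negative in all libraries at 0, 1 and 3 h and positive in all at 6 and 24 h. Where a fit that carries these length trends and the trends with GC content as offsets changed a call, or moved a called value by more than 1.5 times, that value is given beside it. Values with the offsets were not drawn up for TNF, RDX, DIS3 or the counts of exosome genes. The part of the mitochondrial share in the results was not tested.

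Members were expressed over a wide range. Per kilobase of the longest GENCODE transcript, the 0 h level (n = 3) was highest for HNRNPD at 174 ± 6.68 CPM per kb, followed by KHSRP at 83.1 ± 1.45, ZFP36L1 at 49.1 ± 0.828 and ELAVL1 at 23.9 ± 0.351. ZFP36 at 9.81 ± 0.614 CPM per kb and ZFP36L2 at 9.03 ± 0.168 differed by little more than their spread. ARID5A at 3.49 ± 0.0818, ZC3H12C at 2.91 ± 0.109 and ZC3H12A at 2.67 ± 0.575 CPM per kb were close together, the last pair within the spread of ZC3H12A, and RC3H1 was lowest at 1.58 ± 0.101. The abundant members were thus the general RNA-binding proteins and ZFP36L1, and the inducible ribonuclease ZC3H12A stood near the bottom. A different choice of transcript would change these levels per length, but not the fold changes over time in the fit without offsets. The sum and shares of the ZFP36 genes given below, and the fits with length and GC offsets, also rest on the longest transcript.

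Calls rest on edgeR's quasi-likelihood test, with a Benjamini-Hochberg adjusted p below 0.05 over all 15365 genes. Adjusted p-values come from that test unless another tool is named. At 1 h, 1 of the 10 members was called, ZC3H12A, higher, where 0.312% of all genes tested were called (0.26% higher). At 3 h, 3 members were called, all higher (ZC3H12A, ZFP36L1 and ARID5A), against 17.7% of all genes (9.04% higher). At 6 h, 6 members were called, all higher (the 3 ZFP36 genes, ZC3H12A, ZC3H12C and KHSRP), against 30.1% of all genes (16.9% higher). At 12 h, ZFP36 and ZFP36L2 were called, both higher, against 12.4% (5.96% higher). At 24 h, 4 were called against 35.1% (18% higher and 17.1% lower): ZFP36L2 and ZC3H12C were higher, HNRNPD and ARID5A lower. The shares at 3, 12 and 24 h were thus near the background in this fit, and 6 of 10 at 6 h lay above it. With the length and GC offsets, 5 of 10 members were called at 3 h (26.1% of all genes), 6 at 6 h (29.2%), 4 at 12 h (16.4%) and 8 at 24 h (34.1%). Each of these counts lay above the share of all genes. Whether the 10 members differ from all genes was not tested. The median log2 fold change of the members was 0.04 and 0.16 after 1 and 3 h, 0.30 after 6 h, and -0.0097 and 0.014 after 12 and 24 h, beside medians of all genes between -0.022 and -0.0017. These 5 comparisons share the 0 h libraries. Over all times together, 8 of the 10 members were called, where 64.2% of all genes were, and ELAVL1 (adjusted p 0.111) and RC3H1 (0.0694) were not.

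**Figure D1:**
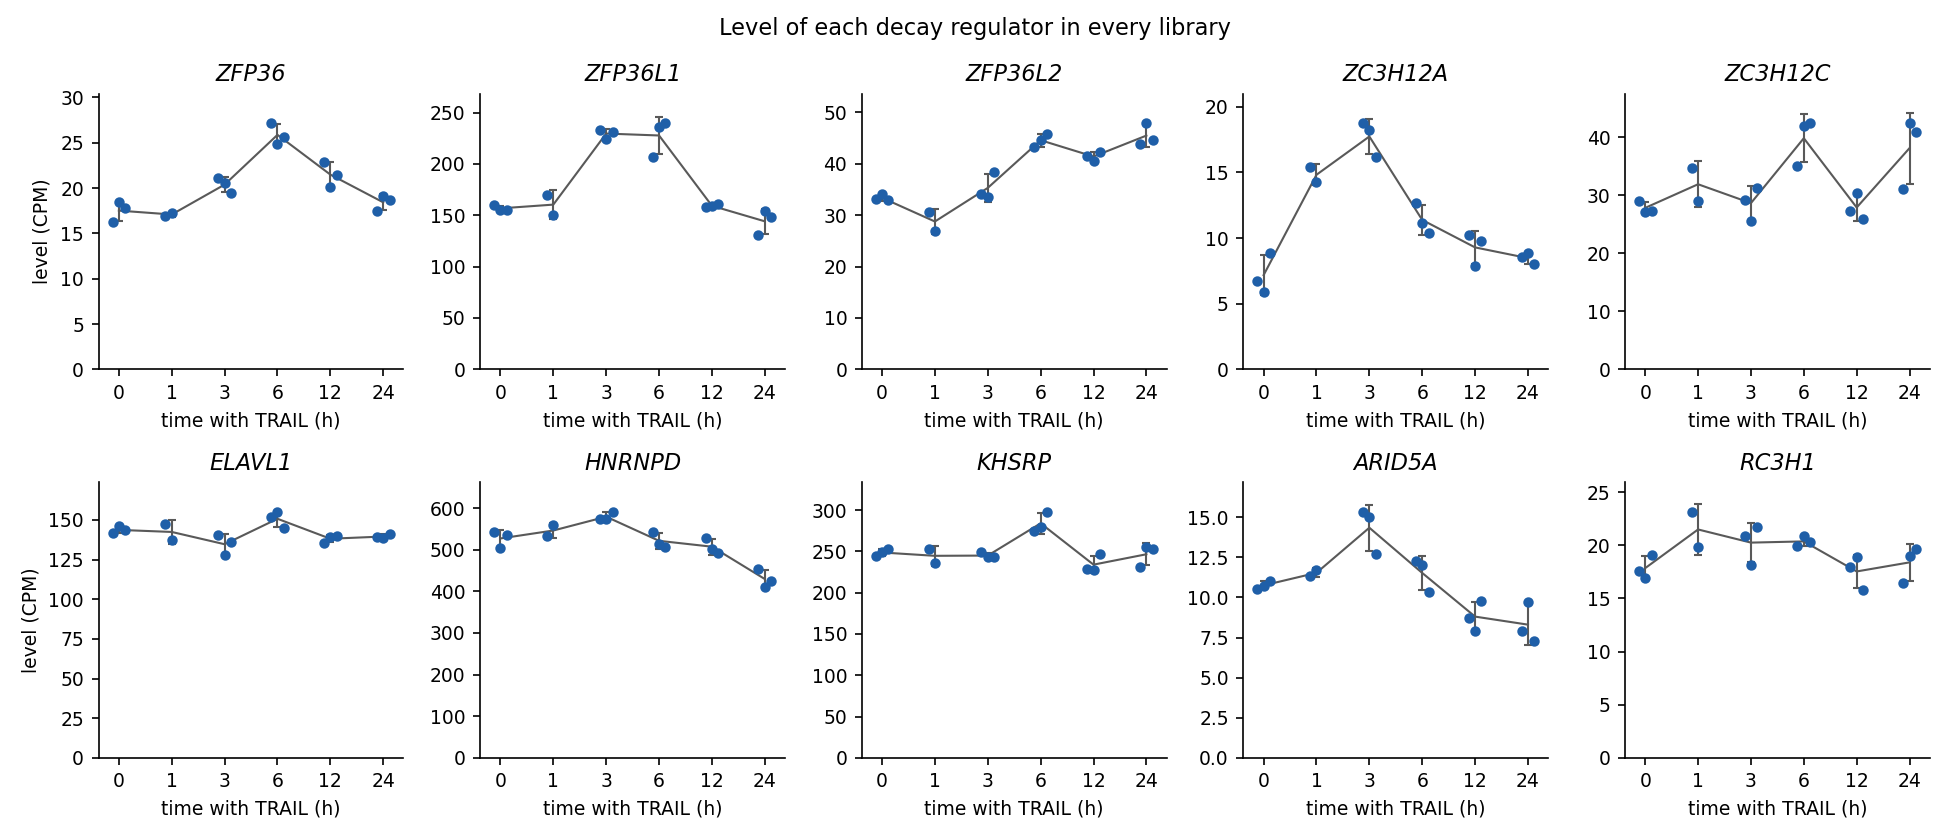
Level in CPM (y axis, from 0) of each of the 10 decay regulators against time with TRAIL in hours (x axis, times evenly spaced). Points are single libraries, 3 per time and 2 at 1 h, and lines with bars are means ± SD. ZC3H12A is highest at 3 h, ZFP36 at 6 h and HNRNPD lowest at 24 h.

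ZC3H12A, the ribonuclease Regnase-1, was the 1 member called at 1 h and had the largest fold change of the 10 at 1, 3 and 6 h. In bulk RNA, fewer cells of a kind and less RNA per cell cannot be told apart, here and in all that follows. In CPM, its 0 h libraries read 6.72, 5.92 and 8.90 and the 1 h libraries 15.4 and 14.3. At 3 h they read 18.8, 18.2 and 16.2. Every library at 1 and 3 h thus exceeded every 0 h library. The log2 fold change of ZC3H12A against 0 h was 1.05 at 1 h (SE 0.145, adjusted p 5.8e-04) and 1.30 at 3 h (SE 0.131, adjusted p 1.2e-06), or 2.06-fold and 2.47-fold. Both calls were made in each of the 16 and 17 alternative fits. From 3 h to 6 h ZC3H12A fell by 0.64 (SE 0.124, adjusted p 4.7e-04), to 12.6, 11.1 and 10.4 CPM, still higher than at 0 h by 0.66 (SE 0.135, adjusted p 0.0014). At 12 h (10.2, 7.88 and 9.77 CPM) and 24 h (8.55, 8.86 and 8.01 CPM) its libraries overlapped those at 0 h. It was not called there (0.36, adjusted p 0.0869, and 0.24, adjusted p 0.188). Replicate 3 of 0 h was the highest of its group, and without it the log2 fold change of ZC3H12A was 0.54 at 12 h (adjusted p 0.0189) and 0.42 at 24 h (0.0271), both called. With the length and GC offsets it was also called, at 0.46 (0.0188) and 0.35 (0.0486). The counts behind these values were 95 to 253 per library, all whole numbers. ZC3H12A (ENSG00000163874) lies on chromosome 1 from 37474552 to 37484379, plus strand, and 60 of its exonic bases overlap the microRNA gene MIR6732 on the same strand.

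Its paralog ZC3H12C followed another course. ZC3H12C libraries stood at 28.99, 27.1 and 27.3 CPM at 0 h and 34.7 and 29.1 at 1 h. They read 29.2, 25.5 and 31.2 CPM at 3 h and 35.1, 41.9 and 42.4 at 6 h. All 6 h libraries exceeded all 0 h and 3 h libraries. ZC3H12C was higher than at 0 h both at 6 h (0.52, SE 0.112, adjusted p 0.0022) and 24 h (0.45, SE 0.112, adjusted p 0.0047). Between these times it fell by 0.51 from 6 h to 12 h (adjusted p 0.0031), to 27.3, 30.4 and 25.9 CPM at 12 h, and was higher again at 24 h than at 12 h (0.45, adjusted p 0.0153). At 24 h replicate 1 stood apart, at 31.1 CPM against 42.4 and 40.8. ZC3H12C has a long transcript (9.542 kb), and its values moved with the length trends of the libraries. With those offsets its log2 fold change was 0.28 at 6 h (adjusted p 0.00235) and 0.20 at 24 h (0.0226), still called. From 3 h to 6 h it went from 0.47 (adjusted p 0.0024) to 0.13 (0.125), no longer called. The step from 12 h to 24 h was lost with replicates 2 and 3 averaged (0.38, adjusted p 0.103). It was also lost without replicate 1 of 12 h (0.44, 0.0624), replicate 3 of 12 h (0.40, 0.0601), replicate 2 of 24 h (0.36, 0.0988) or replicate 3 of 24 h (0.40, 0.0782). ZC3H12C lies on chromosome 11 from 110093361 to 110171841 within RDX on the other strand, with 0 shared exonic bases. RDX was not called against 0 h at any time (adjusted p 0.0667 to 0.987) and was higher at 6 h than at 3 h by 0.49 (adjusted p 6.5e-04). This step of RDX was not set beside a value with the offsets. The ratio of ZC3H12A to ZC3H12C within each library was higher at 3 h than at 0 h by 1.29 on the log2 scale, with no overlap. The exact two-sided permutation test gave p = 0.1 for it, the smallest that 3 against 3 allows (0.214 adjusted over the 15 ratio comparisons made here).

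All 3 ZFP36 genes were higher at 6 h than at 0 h, and they reached this by different courses: ZFP36L1 was already higher at 3 h and differed by -0.012 between 3 h and 6 h (adjusted p 0.900), and the other two rose over that step. ZFP36L1, the most abundant of them, read 159.8, 155 and 155 CPM at 0 h and 170.2 and 151 at 1 h. The 3 h libraries read 233, 225 and 231 CPM. Its 6 h libraries read 207, 236 and 239.8 CPM, and those at 12 h 158, 159 and 161. All 3 h and 6 h libraries exceeded all of those at 0 h, 1 h and 12 h. The log2 fold change of ZFP36L1 against 0 h was 0.55 at 3 h (SE 0.0665, adjusted p 1.1e-05) and 0.54 at 6 h (SE 0.0663, adjusted p 1.3e-05). Between 1 h and 3 h it rose by 0.52 (adjusted p 2.6e-04), and between 6 h and 12 h it fell by 0.52 (2.4e-05), and all 4 calls were made in every alternative fit. At 24 h, with 130.4, 154 and 148 CPM, ZFP36L1 lay below every 0 h library but was not called (-0.12, adjusted p 0.164). With the length and GC offsets it was (-0.17, 0.0366).

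ZFP36, which encodes tristetraprolin, was at 16.3, 18.4 and 17.8 CPM at 0 h and 16.9 and 17.3 at 1 h. It read 21.1, 20.6 and 19.4 CPM at 3 h and 27.2, 24.8 and 25.6 at 6 h. The 3 h libraries did not overlap those at 0 h, as in 33.9% of all genes. ZFP36 was not called at 3 h (0.22, adjusted p 0.0633), nor under any alternative. At 6 h it was higher by 0.56 (SE 0.0769, adjusted p 3.9e-05), and from 3 h to 6 h it rose by 0.34 (0.00145), or 0.52 with the offsets (1.6e-05). From 6 h to 12 h ZFP36 fell by 0.27 (adjusted p 0.0150), a step not called without replicate 1 of 6 h (-0.24, 0.0532) or replicate 2 of 12 h (-0.22, 0.0703), nor without the filter on low counts (-0.27, 0.0523). At 12 h, with 22.9, 20.1 and 21.5 CPM, it was still above 0 h (0.29, adjusted p 0.0188), a call lost without replicate 1 of 0 h (0.24, 0.107) or replicate 1 of 12 h (0.24, 0.0807). At 24 h ZFP36 was back among the 0 h values, at 17.4, 19.1 and 18.7 CPM (0.073, adjusted p 0.4998). With the offsets its 24 h value was 0.22 and called (0.0302).

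ZFP36L2 stayed high to the end. Its 0 h libraries read 33.1, 34.1 and 32.9 CPM, those at 1 h 30.5 and 27.0, and those at 3 h 34.0, 33.5 and 38.4. At 6 h they read 43.3, 44.6 and 45.8 CPM, at 12 h 41.5, 40.5 and 42.2, and at 24 h 43.9, 47.9 and 44.6. No library from 6 h on overlapped those at 0 h. ZFP36L2 was called at 6 h (0.42, SE 0.0687, adjusted p 2.3e-04), 12 h (0.31, SE 0.0688, adjusted p 0.0063) and 24 h (0.45, SE 0.0687, adjusted p 1.1e-04), in each of the 17 alternative fits of each comparison. At 1 h both libraries lay below those at 0 h, without a call (adjusted p 0.770). From 1 h to 3 h ZFP36L2 rose by 0.30 (adjusted p 0.0337), a call made in 8 of 16 alternative fits. It was lost without replicate 1 of 1 h (0.38, adjusted p 0.0641), replicate 2 of 1 h (0.22, 0.250), replicate 1 of 3 h (0.32, 0.0556) or replicate 3 of 3 h (0.23, 0.0925). It was also lost with the replicate number as a block (0.28, 0.0543), library size alone (0.27, 0.0787), no filter (0.28, 0.107) and only these groups fitted (0.30, 0.178).

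Summed per kilobase, the 3 ZFP36 genes stood at 68.0 ± 0.315 CPM per kb at 0 h (n = 3). The sum was 92.9 ± 1.72 after 3 h and 97.9 ± 5.37 after 6 h, then 73.1 ± 0.893 after 12 h and 67.8 ± 4.81 after 24 h (each n = 3). The sum at 24 h was thus within the spread of that at 0 h, although its make-up differed. ZFP36L1 held 72.3 ± 1.09% of the sum at 0 h, 77.4 ± 0.193% at 3 h and 66.6 ± 1.04% at 24 h. ZFP36L2 held 13.3 ± 0.218%, 10.3 ± 0.711% and 18.2 ± 0.740% at the same times. The log2 ratio of ZFP36L2 to ZFP36L1 within libraries was lower at 3 h than at 0 h (difference -0.47) and higher at 24 h (0.57), without overlap with 0 h at either time. The exact two-sided permutation p was 0.1 for each, the smallest these groups allow (0.214 adjusted over the 15 ratio comparisons). These ratios were chosen after the levels had been seen.

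**Figure D2:**
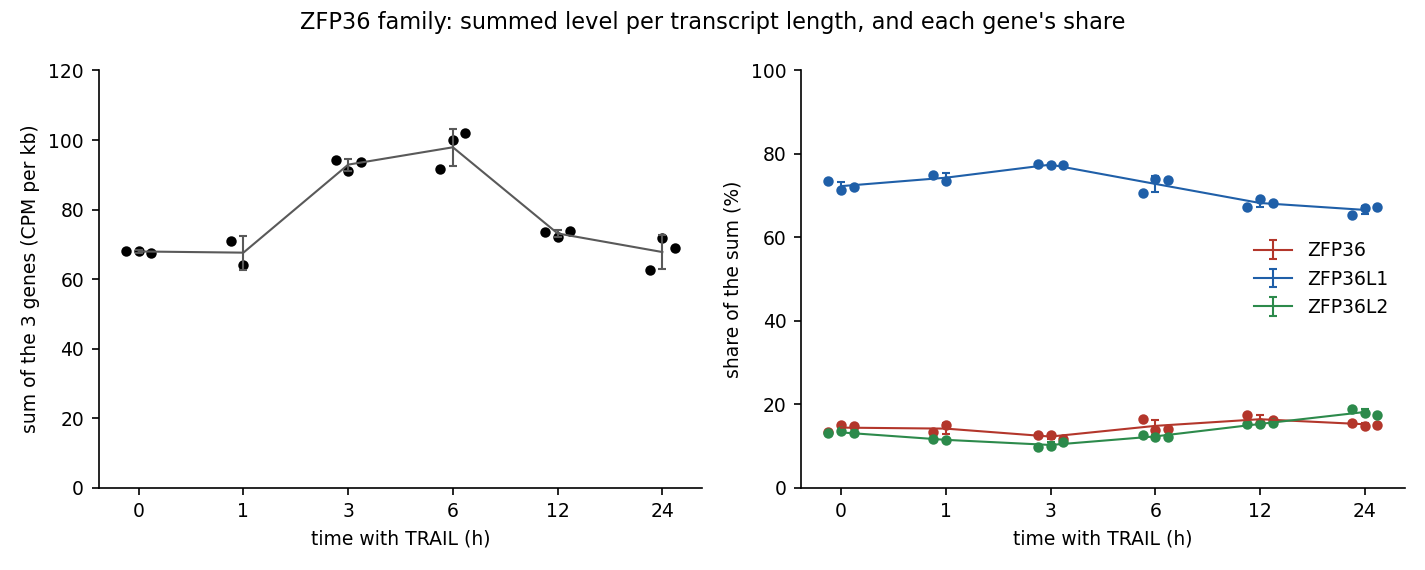
Left, sum of ZFP36, ZFP36L1 and ZFP36L2 in CPM per kb of transcript against time with TRAIL in hours. Right, share of each gene in that sum in percent. Points are libraries, and lines with bars are means ± SD. The sum is highest at 6 h and at 24 h is near its 0 h value, while the share of ZFP36L2 is 13.3% at 0 h and 18.2% at 24 h.

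Of the A/U-rich element binders that mostly promote decay, HNRNPD was the most abundant member and was lower at the end of the course. HNRNPD libraries read 542, 504 and 535 CPM at 0 h. They read 573, 573 and 592 CPM at 3 h but 454, 411 and 424 at 24 h. All 24 h libraries lay below all libraries at the other times. The log2 fold change at 24 h was -0.29 (SE 0.0549, adjusted p 5.6e-04), called in all 17 alternative fits. From 12 h to 24 h HNRNPD fell by 0.24 (adjusted p 0.0092), a step lost with replicates 2 and 3 averaged (-0.22, 0.0718). It was also lost without replicate 1 of 12 h (-0.21, 0.0650) or replicate 2 of 24 h (-0.21, 0.0629). At 3 h all HNRNPD libraries lay above those at 0 h, but the gene was called by DESeq2 (0.14, adjusted p 0.0355) and with the offsets (0.16, 0.0186), not in the edgeR fit without offsets (0.14, adjusted p 0.0905). HNRNPD counts were not whole in 4 of 17 libraries, and 203 of its exonic bases overlap the antisense gene AC124016.1.

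KHSRP was raised at 6 h alone among the times tested against 0 h. It read 244, 249 and 253 CPM at 0 h and 274, 279.5 and 298 at 6 h. The groups did not overlap, and replicate 3 was the highest at 6 h. The difference was small (0.19, SE 0.0551, adjusted p 0.0135) and was not called without replicate 3 of 6 h (0.16, 0.0874), without replicate 1 of 0 h (0.18, 0.0564) or with the 6 h replicates 2 and 3 averaged (0.17, 0.0712). KHSRP rose between 3 h and 6 h (0.21, adjusted p 0.0042) and fell between 6 h and 12 h (-0.28, 0.0014), and both steps were called in all 17 alternative fits.

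Of the members that stabilise mRNA, ARID5A changed both ways. ARID5A libraries read 10.5, 10.7 and 11.0 CPM at 0 h and 11.3 and 11.7 at 1 h. The 3 h libraries read 15.4, 15.0 and 12.7 CPM. The 6 h libraries read 12.3, 12.0 and 10.3 CPM and those at 12 h 8.71, 7.93 and 9.77. The 24 h libraries read 7.90, 9.73 and 7.27 CPM. The 3 h libraries lay above all those at 0 h, and the 12 h and 24 h libraries lay below them. ARID5A was called higher at 3 h (0.41, SE 0.114, adjusted p 0.0167) and lower at 24 h (-0.37, SE 0.119, adjusted p 0.0207), and at 12 h it was not called (-0.29, adjusted p 0.110). Both calls rest on few counts (109 to 207 per library). The 3 h call was lost without replicate 2 of 0 h (0.41, adjusted p 0.0528), replicate 1 of 3 h (0.36, 0.0791) or replicate 2 of 3 h (0.38, 0.0654). The 24 h call was lost without replicate 3 of 0 h (-0.36, 0.0508), replicate 1 of 24 h (-0.33, 0.0580) or replicate 3 of 24 h (-0.29, 0.108). It was also lost with scaling to library size alone (-0.30, 0.0563) and with the length and GC offsets (-0.24, 0.0837). In the edgeR fit without offsets ARID5A was the 1 member called in opposite directions at different times against 0 h. With the offsets it was not, and other members were called higher at 3 h and lower at 24 h. These were ZFP36L1 (0.56, adjusted p 1.0e-06, and -0.17, 0.0366), HNRNPD (0.16, 0.0186, and -0.36, 8.5e-06) and RC3H1 (0.27, 0.0080, and -0.22, 0.0196). DESeq2 also called HNRNPD higher at 3 h and lower at 24 h.

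ELAVL1, which encodes HuR, moved little. Its libraries lay between 128 CPM (3 h, replicate 2) and 155 CPM (6 h, replicate 2), and at 0 h they read 142, 146 and 144. The highest mean, at 6 h, was 1.119 times the lowest, at 3 h. ELAVL1 was called in none of the 5 edgeR comparisons with 0 h (adjusted p 0.222 to 0.992, unadjusted p under 0.05 in 0 of them), and DESeq2 called it in none either. At 6 h against 0 h its value was 0.068 (adjusted p 0.332), and with the length and GC offsets -0.070 (0.255), called in neither fit. With the offsets it was lower at 12 h (-0.15, adjusted p 0.0214) and 24 h (-0.23, 6.1e-04). From 3 h to 6 h it was called higher (0.16, adjusted p 0.0161), and with the offsets that step was -0.028 (0.655), of the other sign. The transcript of ELAVL1 is long (6.015 kb), and 528 of its exonic bases overlap the antisense gene AC010336.6.

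RC3H1 (Roquin-1), the least abundant member per length, read 17.5, 16.9 and 19.1 CPM at 0 h and 23.2 and 19.8 at 1 h. All later libraries lay between 15.8 CPM (12 h, replicate 3) and 21.7 CPM (3 h, replicate 3). RC3H1 was not called against 0 h at any time in edgeR (adjusted p 0.139 to 0.895, unadjusted p under 0.05 at 1 h alone, 0.0202). Its transcript is the longest of the 10 (11.261 kb), and with the offsets it was called higher at 3 h (0.27, adjusted p 0.0080) and lower at 24 h (-0.22, 0.0196). At 6 h against 0 h it stood at 0.19 (adjusted p 0.139) and with the offsets at -0.040 (0.708), and from 3 h to 6 h it was 0.0065 (0.963), and -0.31 with the offsets (0.0014).

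**Figure D3:**
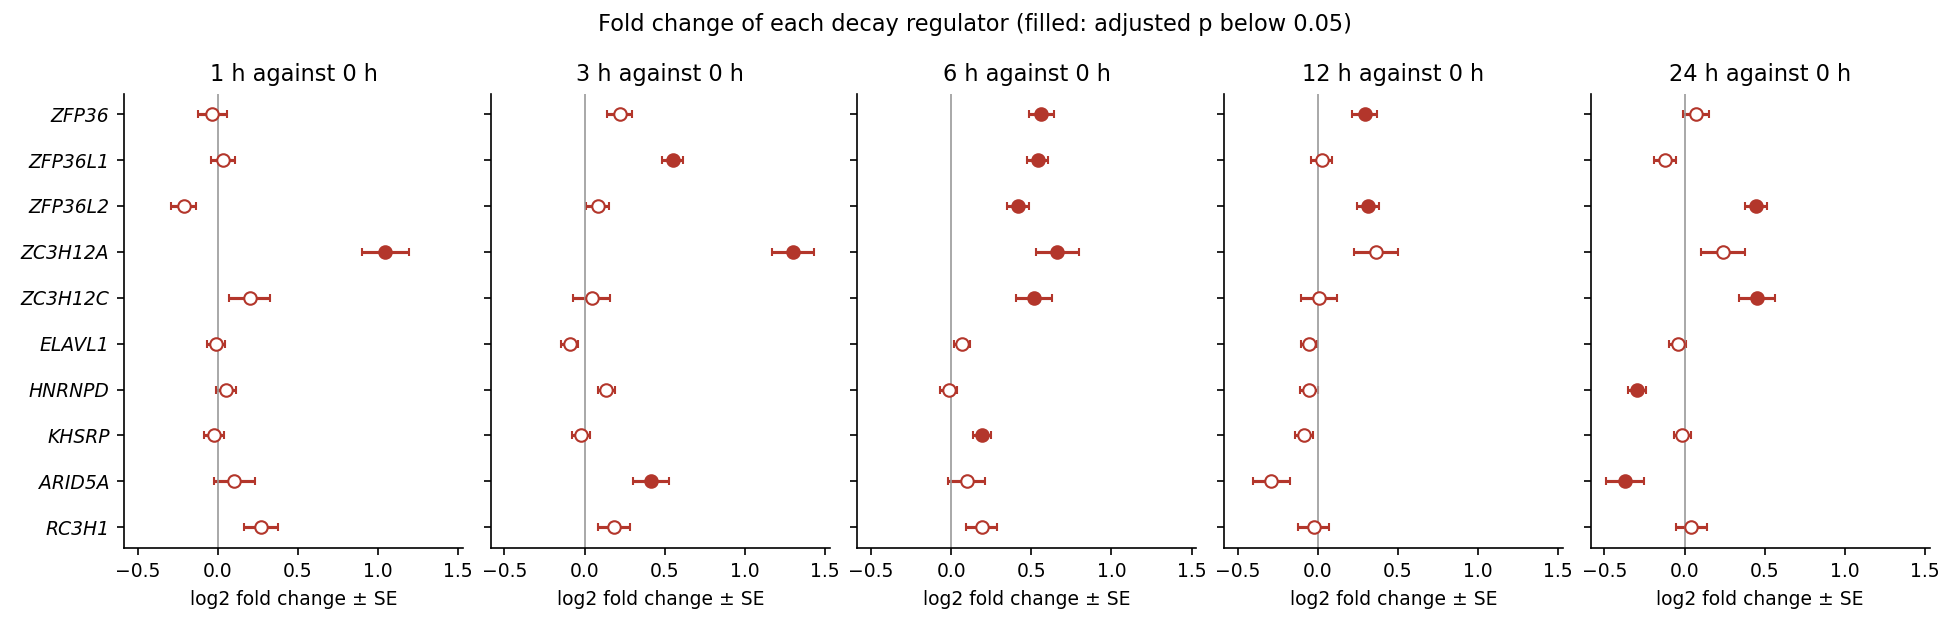
Log2 fold change against 0 h (x axis) of each member (y axis) at 1, 3, 6, 12 and 24 h, with standard errors as bars. Filled points have an adjusted p below 0.05 (edgeR). ZC3H12A alone is filled at 1 h, and 6 of the 10 members are filled at 6 h, all to the right of 0.

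Between consecutive times, 2 of the 10 members were called at 3 h against 1 h (5.73% of all genes, 3.17% higher), 8 at 6 h against 3 h (43.2%, with 22.9% higher and 20.3% lower), 5 at 12 h against 6 h (20.6%, with 11.9% lower) and 2 at 24 h against 12 h (12%, with 6.42% higher and 5.6% lower). From 3 h to 6 h, ZFP36, ZFP36L2, ZC3H12C, ELAVL1 and KHSRP were higher and ZC3H12A, HNRNPD and ARID5A lower. The call of ELAVL1 was lost without replicate 2 of 3 h (0.12, adjusted p 0.0923) or replicate 2 of 6 h (0.14, 0.0740), with replicates 2 and 3 averaged (0.16, 0.0536), with only these groups fitted (0.15, 0.0711) and with the offsets, and was made in 12 of 17 alternative fits. That of HNRNPD (-0.15, adjusted p 0.0304) was lost without replicate 1 of 3 h (-0.16, 0.0523), replicate 3 of 3 h (-0.14, 0.0651), replicate 2 of 6 h (-0.14, 0.0955) or replicate 3 of 6 h (-0.13, 0.117), with library size alone (-0.082, 0.201), without the filter (-0.13, 0.195) and with replicates averaged (-0.14, 0.0974), and was made in 10 of 17. That of ARID5A (-0.32, adjusted p 0.0283) was lost without replicate 1 of 3 h (-0.27, 0.111), replicate 2 of 3 h (-0.29, 0.0921) or replicate 3 of 6 h (-0.24, 0.147), with the offsets (-0.24, 0.0594), with library size alone (-0.25, 0.0822) and without the filter (-0.29, 0.0669), and was made in 11 of 17. From 6 h to 12 h all 5 called members, ZFP36, ZFP36L1, ZC3H12C, KHSRP and ARID5A, were lower. The step of ARID5A (-0.39, adjusted p 0.0235) was lost without replicate 1 of 6 h (-0.34, 0.0699), replicate 2 of 6 h (-0.36, 0.0850), replicate 1 of 12 h (-0.39, 0.0601) or replicate 2 of 12 h (-0.31, 0.09996). The count of 5 was 3 without replicate 1 of 6 h and 3 without replicate 2 of 12 h. The count from 12 h to 24 h was 0 without replicate 1 of 12 h or replicate 2 of 24 h, and 1 without replicate 3 of 12 h or replicate 3 of 24 h.

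Other genes showed courses close to those of single members. By Pearson's r of log2 CPM over the 17 libraries, among the 11359 genes whose log2 CPM averaged 2 or more, the gene most like ZC3H12A was JUNB, an AP-1 subunit (r = 0.91), followed by the kinase gene NUAK2 (0.91). For ZFP36L1 they were the cytochrome P450 genes CYP1A1 (0.97) and CYP24A1 (0.96). ZFP36 was nearest to FMNL1, a formin (0.95), and HSPA1A, a heat shock protein gene (0.92). HSPA1A counts were not whole in 16 of 17 libraries, and those of FMNL1 in 17, so that both are uncertain, as are CHML (17) and SNRPD1 (16). ZFP36L2 was nearest to ZNF45 (0.95) and RNF145 (0.95), and ZC3H12C to YOD1 (0.94) and CHML (0.94). HNRNPD was nearest to HMGB2, a chromatin protein (0.98), and SNRPD1, a spliceosome subunit (0.98). KHSRP was nearest to KIF1C and LMNB2 (0.92 each), and ARID5A to PPP1R13L (0.95) and USP43 (0.94). Without the 2 libraries farthest from the member's median, these r values ran from 0.82 (KHSRP and LMNB2) to 0.97 (ZFP36L1 and CYP1A1). The r values describe these libraries, which share 6 times and 1 cell line.

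The transcripts that these proteins are reported to control changed more than the regulators. Of 28 such cytokine and early-response genes, 26 were tested. At 3 h, 21 were called higher and 1 lower (of all genes, 9.04% were called higher and 8.71% lower), and the median log2 fold change was 1.34. At 6 h, 22 were higher and 0 lower (median 0.97), at 12 h 13 and 4 (0.44), and at 24 h 10 and 4 (0.16, or 0.12 with TNF at its bound). Of all genes, 16.9% were called higher and 13.2% lower after 6 h, 5.96% higher and 6.48% lower after 12 h, and 18% higher and 17.1% lower after 24 h, so that the 4 of 26 called lower at 24 h were near the background. At 1 h, 4 were higher and 1 lower (median 0.21), against 0.26% and 0.0521% of all genes. With the length and GC offsets, added for the lists after the data were seen, 21 were higher and 2 lower after 3 h. After 6 h the numbers were 22 and 0, after 12 h 14 and 5, and after 24 h 13 and 6. In that fit 26.1%, 29.2%, 16.4% and 34.1% of all genes were called in either direction at these times. Shares of all genes by direction were not computed for it, so list counts by direction have no background there. The list was drawn up with earlier results of these data known. Neither its direction nor its larger changes than those of the regulators are thus independent evidence.

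CXCL1, a neutrophil chemokine, stood at 1.35 ± 0.235 CPM at 0 h and 10.1 ± 1.15 at 3 h (n = 3 each, log2 fold change 2.90, adjusted p 1.7e-09). CSF2, which encodes GM-CSF, went from 10.5 ± 0.612 to 53.4 ± 4.67 CPM (2.34, 9.7e-11) and stood at 23.5 ± 1.83 at 6 h. TNF had 0 counts at 0 h and 26 counts over the 3 libraries at 3 h, at least 10.4-fold higher against a floor of 3 counts over the 0 h group. BIRC3, an inhibitor of apoptosis, was higher at both 6 h (2.14, adjusted p 2.7e-11) and 24 h (2.04, 3.0e-11). FOS went the other way, from 44.0 ± 7.55 CPM at 0 h to 12.2 ± 1.16 at 3 h (-1.85, adjusted p 6.0e-08), and was again at 43.1 ± 7.44 at 6 h. DUSP1 (-0.52, adjusted p 2.2e-05) and FOS (-1.05, 2.1e-05) were also lower at 24 h, and CXCL1 (1.39, 7.6e-05) and CSF3 (1.38, 0.0045) higher.

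Among the target transcripts, 14 of the 26 tested carried the nonamer printed above. At 3 h, 11 of these 14 were called higher and 1 lower (median 1.45), and of the 12 without it 10 were called higher (median 0.73). At 6 h the medians were 1.08 with 11 of 14 called higher and 0.52 with 11 of 12. The medians were higher with the nonamer at these times, whereas the share called higher was smaller with it at both. At 12 h the share was larger with it, 8 of 14 against 5 of 12 (medians 0.56 and 0.25). At 24 h 5 of 14 and 5 of 12 were called higher. None of these differences was tested, and the split was not made with the length and GC offsets.

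The machinery that carries out decay was described by a list of 42 deadenylase, decapping, exonuclease and exosome genes, all tested. After 3 h, 5 of these genes were called higher and 2 lower, and after 6 h 18 were higher and 4 lower. After 12 h, 5 were higher and 2 lower, and after 24 h 17 were higher and 9 lower. After 1 h edgeR called 0 of them. Against the shares of all genes given above, 5 of 42 higher at 3 h (9.04%), 4 of 42 lower at 6 h (13.2%) and 9 of 42 lower at 24 h (17.1%) were near the background, and 18 of 42 higher at 6 h (16.9%) and 17 of 42 at 24 h (18%) lay above it. With the length and GC offsets 12 rose and 6 fell by 3 h, and 12 rose and 4 fell by 6 h. By 12 h 6 rose and 6 fell. By 24 h 8 rose and 10 fell, so that the larger number of higher genes at 24 h was lost. Shares of all genes by direction were not computed for that fit. The share of mitochondrial counts and the length slope moved with these times, as given above. Its median log2 fold change was 0.16 at 6 h and between -0.037 and 0.070 at the other times. TOB2, an adaptor of the CCR4-NOT deadenylase, stood at 23.2 ± 1.83 CPM before TRAIL, 32.6 ± 2.43 after 3 h and 41.4 ± 3.67 after 6 h (0.84, adjusted p 7.0e-07). CNOT1, the CCR4-NOT scaffold, was higher at 6 h (0.61, adjusted p 0.0032) and 24 h (0.67, 0.0013), its counts being fractional in 17 of 17 libraries. The decapping activator gene DCP1A was higher at 6 h (0.59, adjusted p 0.0020) and 24 h (0.71, 3.7e-04). BTG2 (0.78, adjusted p 0.0231) and EXOSC3 (0.35, 0.0045, counts not whole in 14 libraries) were higher at 3 h and PARN (-0.26, 0.0243) and BTG1 (-0.29, 0.0011) lower. Of the 12 exosome genes of the list, edgeR called 1 higher, 3 lower and 8 neither way at 6 h. The numbers were 1, 7 and 4 after 24 h. The 1 higher was DIS3, a catalytic subunit, at 6 h (0.43, adjusted p 0.0022) and 24 h (0.49, 6.6e-04), named after its values were seen and with counts fractional in 17 libraries. Neither DIS3 nor these exosome counts were set beside values with the offsets. The 3 lowest called genes of the list at both of these times were exosome genes, with EXOSC5 at -0.40 (adjusted p 0.0048) and -0.74 (3.0e-05), EXOSC8 at -0.32 (0.0049) and -0.43 (5.0e-04, counts not whole in 17 libraries), EXOSC1 at -0.33 at 6 h (0.0089) and EXOSC7 at -0.31 at 24 h (0.0063). With the offsets CNOT1 was at 0.44 after 24 h, and EXOSC5 was at -0.20 and -0.46, EXOSC8 at -0.19 at 6 h and EXOSC7 at -0.20 at 24 h, all called, and EXOSC1 at -0.17 was not (0.0574).

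The last list held 32 other RNA-binding proteins and the kinases, phosphatases and partners that act on the members, of which 26 were tested. After 3 h, 5 were called higher and 2 lower (median 0.025), after 6 h 11 and 2 (median 0.14), after 12 h 4 and 3 (median 0.024), and after 24 h 8 and 6 (median 0.076). The 2 of 26 lower at 3 h (8.71% of all genes) and 6 of 26 lower at 24 h (17.1%) were near the background, and 11 of 26 higher at 6 h (16.9%) lay above it. With the offsets 8 rose and 2 fell by 3 h, and 10 rose and 2 fell by 6 h. By 12 h 4 rose and 5 fell, and by 24 h 5 rose and 11 fell. More genes were thus lower than higher at the last time, again without shares of all genes by direction. MAPKAPK2, the kinase MK2 that phosphorylates ZFP36, stood at 113 ± 7.23 CPM at 0 h and 149 ± 3.42 at 6 h (0.39, adjusted p 3.9e-05), and MAPKAPK3 was lower at 3 h (-0.28, 0.0024) and 6 h (-0.15, 0.0493). MALT1, the protease that cleaves ZC3H12A, was higher at 3 h (0.39, adjusted p 3.0e-04) and 6 h (0.46, 3.9e-05), its counts being fractional in 15 of 17 libraries. RC3H2, the paralog of RC3H1, was higher at 6 h (0.55, adjusted p 0.0024) and 24 h (0.57, 0.0013). HNRNPDL and HNRNPAB, the closest relatives of HNRNPD on the list, were higher at 3 h (0.36, adjusted p 0.0014, and 0.34, 0.0015) and lower at 24 h (-0.70, 1.4e-06, and -0.47, 5.0e-05). HNRNPL was also lower at 24 h (-0.51, adjusted p 2.6e-06). Counts of HNRNPAB, HNRNPL and IGF2BP3 were fractional in 17 of 17 libraries. IGF2BP3 was lower at 3 h (-0.58, adjusted p 0.0119), TIA1 lower at 6 h (-0.21, 0.0300), and MAPK14 (0.33, 0.0023) higher at 24 h. With the offsets MAPKAPK3 at 6 h was not called (-0.12, 0.0612). MALT1 at 6 h was then 0.25, RC3H2 0.32 at both times, TIA1 -0.36 and MAPK14 0.20, all called.

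**Figure D4:**
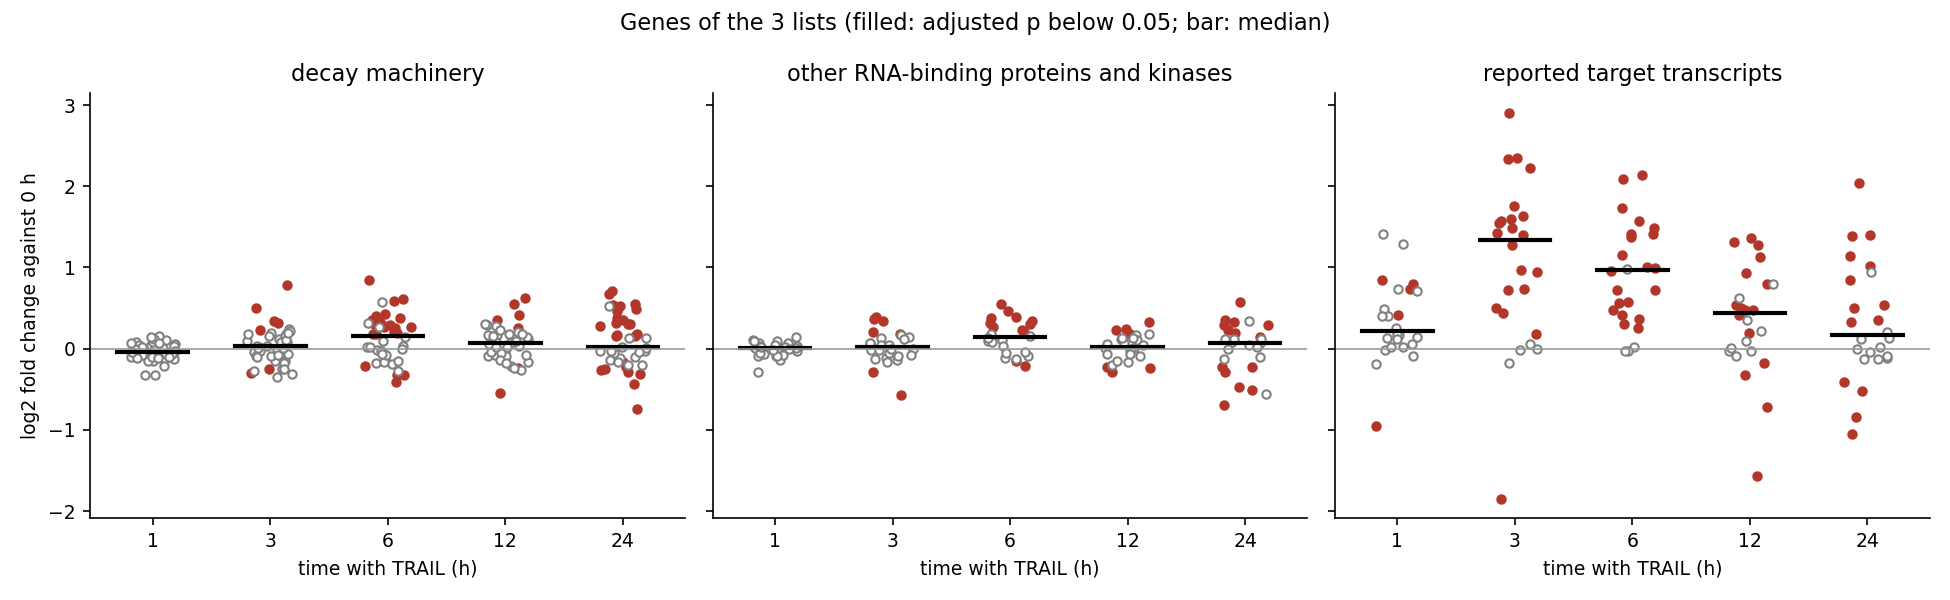
Log2 fold change against 0 h (y axis) at 1, 3, 6, 12 and 24 h (x axis) of the tested genes of the 3 lists, with called genes (edgeR, adjusted p below 0.05) filled and the list's median as a bar. TNF, with 0 counts at 0 h, is counted in the median but not drawn. The target transcripts reach a median of 1.34 at 3 h, and the medians of the other lists stay between -0.037 and 0.16.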

How the data were processed

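The authors deposited 1 table of gene-level expected counts (estimated fragments per gene, from RSEM per the file name), not scaled to depth or length. Cutadapt 1.18, STAR 2.7.0f and hg38 stand in the submitters' processing notes. The RSEM version, the annotation and the strand setting of the counting are not given in the sources used here. Expected counts were rounded, filtered with filterByExpr and scaled by TMM in edgeR 4.0.16 (R 4.3.3), and all 17 libraries entered 1 robust quasi-likelihood fit, with 1 mean for each time. Its spread is thus shared between times. A standard error is the unshrunken log2 coefficient over the square root of its F. The test was checked on counts with known changes. Alternatives were RLE scaling, library size alone, no filter, a minimum mean count of 10, limma-voom (limma 3.58.1), DESeq2 1.42.0, a replicate block, unrounded counts, replicates 2 and 3 averaged at 6 h and 24 h (the closest pairs, with a chi-square per gene of 1.55 and 1.68 against 3.86 to 14.6 elsewhere), only the 2 groups compared, length and GC trends as offsets (for the lists added after seeing the data), and each library left out. Ensembl IDs, version ignored, matched GENCODE 29 for 58597 of 58870 entries. Of the lists, 1 symbol was not matched. Named besides the members were up to 3 highest and 3 lowest called genes of each list at 3, 6 and 24 h, and the 2 genes most correlated with each member called over all times, except list genes that are not reported here. Values of RDX and DIS3, and of CSF2 and FOS at further times, were added after they were seen. The members and lists were chosen with earlier results of these data known.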

Additional observations from a re-analysis of the deposited data

How the results depend on the processing

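Of 90 member comparisons (10 members, 9 pairs of times), 33 were called, and over 558 fold changes of these under the alternatives, 503 kept direction and call, 54 kept direction without a call and 1 changed sign. That 1 was ELAVL1 from 3 h to 6 h with the length and GC offsets (-0.028). The offsets also raised the member counts to 5 at 3 h (26.1% of all genes), 4 at 12 h (16.4%) and 8 at 24 h (34.1%) against 0 h, and gave RC3H1 -0.22 at 24 h and -0.31 from 3 h to 6 h, where it had 0.041 and 0.0065. At 3 h against 1 h the count was 1 with library size alone, without the filter, with the replicate block and with only the 2 groups fitted. At 24 h against 12 h it was 0 with replicates 2 and 3 averaged. RC3H1 also changed sign with those averaged (-0.0065 at 24 h, -0.0073 from 3 h to 6 h), with a mean count of at least 10 (-0.0020) and with the 2 groups fitted (-0.0025, both from 3 h to 6 h). ELAVL1 at 24 h was 0.032 with library size alone. The cause of these changes was not tested beyond what each alternative alters. With 1 library left out, member counts ran from 1 to 3 at 12 h, 1 to 2 from 1 h to 3 h, 3 to 5 from 6 h to 12 h and 0 to 2 from 12 h to 24 h, and RC3H1 from -0.0095 to 0.12 at 24 h and from -0.067 to 0.056 from 3 h to 6 h. Where a 1 h library was left out, the remaining one was taken to vary like the other groups. In the 47 comparisons called under no setting, 40 of 782 fold changes had the other sign. Whether replicate numbers pair the libraries was not settled. Residuals of libraries at different times correlated above 0.1 in 8 of 40 same-numbered pairs and 14 of 80 differently numbered pairs. Of the 17 libraries, 7 correlated best with their own number. Replicate 1 had the lowest length slope at 0, 6, 12 and 24 h (0.012 against 0.098 and 0.095 at 6 h), but not at 1 or 3 h. The replicate block changed no other member count. Low counts limit ZC3H12A and ARID5A most.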

Other observations

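Among all genes tested, 1173 carried the nonamer TTATTTATT in the longest annotated 3′ UTR and 11636 had a 3′ UTR without it, and these groups were set side by side after the other results had been seen. At 6 h, 31.5% of the carriers and 18.7% of the others were called higher in edgeR, and at 24 h 32.1% and 19.8%. With the length and GC trends of each library as offsets, the shares called higher were 23.7% and 18.3% at 6 h and 20.5% and 18.2% at 24 h. The median log2 fold change of the carriers went from 0.13 to 0.024 at 6 h and from 0.16 to 0.022 at 24 h. At 3 h the shares called higher were 11.6% of carriers and 9.08% of the others, and with the offsets 18.9% and 14.2%. The share called lower at 24 h was 8.87% of carriers and 18.6% of the others without offsets, and 18.0% and 19.3% with them.

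In the RefSeq promoter table (GRCh38.p14, 250 bases before to 50 after each start), 8 of the 10 members were matched, with 11 promoter windows between them. The NF-κB consensus, searched on both strands, occurred in 1 of these 11 windows, 1 of the 2 of ZC3H12C, and in 11.3% of all 35116 windows. A match is a description of letters and not of binding.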
